A study of Mus musculus and synthetic construct with 21 samples.

Results

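Pool 6 of this study asked, element by element, what happens when 1 stretch of a regulatory DNA site is exchanged for a copy of a named transcription factor motif. The elements described here are those in which the exchanged stretch received a copy of its own motif: the name of the inserted motif equals the name of the motif that the stretch is called after. There were 95 such elements, 1 for each exchanged stretch (called a slot), among 3720 elements of pool 6 and 22463 elements in the 7 reporter pools of the study. They lie in 15 genomic sites and carry 27 native motif names. Each slot also received 38 other named motifs, so that the own-name insert can be set against the unaltered site (wt) and against the other inserts at the same place. The comparison asks whether a generic copy of a motif serves as well as the native bases of that motif.

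The reporter assay was a massively parallel one, in which each DNA element drives a transcript that carries barcodes of that element. It was run in 3T3-L1 cells, an established mouse pre-adipocyte line that turns into adipocytes after hormonal induction. The cells had been grown to confluence and given an inducing mixture of dexamethasone (1 µM), insulin (1.7 µM) and the phosphodiesterase inhibitor IBMX (0.5 mM), and RNA was taken 16 h after transfection. Pool 6 has 1 RNA library from transfected cells and 1 library of the plasmids themselves, which did not pass through cells. There was no second culture and no second time point, no cells without induction enter these values, and no difference below carries a p-value. Activity is log2 of an element's RNA counts over its plasmid counts, each raised by 1 and divided by its library total, so that 0 is the average output of the pool and 1 unit is a 2-fold difference. The RNA library held 14198899 counts and the plasmid library 19193436 counts.

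AP-1 is a group of dimeric basic leucine zipper factors, built from Jun and Fos family proteins, that bind a short palindromic motif and respond to growth and stress signals. Bach1 binds an extended form of that motif. PPARγ, the nuclear receptor that directs adipocyte formation, binds DNA together with RXR at a DR1 motif, which is a direct repeat of the element AGGTCA with 1 base between the copies. Other nuclear receptors, such as COUP-TF, HNF4 and ERR, recognise related repeats, and C/EBP factors and NFI are further regulators of adipocyte enhancers.

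The name of each site holds a 16-base sequence from the genome, and in all 15 of them the last 13 bases were laid over a DR1. The 5 sites on which the results below turn are shown 5′ to 3′ with capitals at the bases that equal a DR1 built from AGGTCA repeats, and lower case elsewhere.
Site 142: tctgGGcaAaAGGgtA
Site 138: attgGGgagaAGGgCA
Site 223: cagAGGcCAaAGGgCA
Site 240: agctGGgCAaAGGggA
Site 129: agtAGGggAaAGagtA
Of the 12 bases in the repeats, site 223 matches 10, site 240 matches 8, and sites 142, 138 and 129 match 7 each. In the mouse build mm9, site 142 is chr3:30881176-30881191 on the plus strand and site 138 is chr9:31069961-31069976 on the minus strand. Site 223 is chr8:129376258-129376273 on the minus strand, site 240 is chr11:100720706-100720721 on the plus strand, and site 129 is chr5:51987229-51987244 on the minus strand. The sites are not assigned to genes, exons or introns, because mm9 gene models were not used here. These letters are the sequences in the site names and not those of the slots, which are given below by start and end as the element names count them. The letters of the inserted motifs, their strand and their exact placement are not analysed here.

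The own-name inserts were well covered. Their RNA counts ran from 117 to 42995 with a median of 2430, their plasmid counts from 446 to 13495 with a median of 5466, and their barcodes from 24 to 261 with a median of 146. Counting error alone gave a 95% interval of the difference from wt that reached 0.08 to either side at the median and 0.30 at most. Repeats inside the pool gave a larger spread. At 12 positions, 25 slots have the same start and end under another native name, and the same motif inserted there was measured more than once. Over the 546 such pairs the median difference in activity was 0.22, 95% of the differences were below 0.73, and the largest was 3.03. For the 28 pairs that include an own-name insert the median was 0.21 and the largest 0.91. The element names do not say whether such pairs have identical bases, so this spread may hold more than measurement error. The value of 0.73 is used below as the size that a difference from wt has to pass to stand outside the repeats. It was passed by 30 of the 95 own-name inserts, while the counting interval alone lay off 0 in 73. Neither share was computed over all inserts, so these counts do not set own-name inserts apart from others.

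Over all 95 slots the own-name insert was, at the median, close to wt and no better than another insert. The mean difference from wt over the 15 sites was -0.11 ± 0.43 (SD, n = 15 sites), and 36 of 95 own-name inserts were above wt, against 42.1% of all 3703 inserts with enough plasmid counts. The mean difference from the other inserts of the slot was 0.09 ± 0.44 (SD, n = 15 sites), and 42 of 95 own-name inserts were above that mean, against 44.6% of all inserts. Both means are smaller than the spread between sites. The median own-name insert was -0.12 from wt and -0.08 from the other inserts, and the medians over all inserts were -0.12 and -0.07.

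At the extremes the shares differed from those of all inserts in some comparisons, though not for inserts at least 2-fold above wt. Own-name inserts stayed within 2-fold of wt in 74 of 95 slots, against 69.9% of all inserts, and stood at least 2-fold below wt in 12, against 20.3%. They stood at least 2-fold above wt in 9 slots, against 9.75%. They exceeded the mean of the other inserts by at least 2-fold in 14 slots, against 8.26% of all inserts, and fell short of it by at least 2-fold in 3, against 5.18%. In 5 slots the own name was the highest of the 39 inserts, against 2.57% for an insert at large. Of the 14 slots, 9 carry names of the AP-1 family, 4 are named rxr or ppar, and 1 is named foxp3. Sites 138, 142 and 223 hold 26 of the 95 slots, 11 of the 12 at least 2-fold below wt and 9 of the 14. In these 3 sites 14 of 26 own copies were within 2-fold of wt, beside 32.8% of all their inserts. In the 12 other sites 60 of 69 were, beside 83.9%, so the contrast in nearness to wt lies mostly in 3 sites. The slots are not independent, since they overlap and merge into 40 stretches of DNA.

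The AP-1 names were the family whose own copy most often exceeded the alternatives. All 11 AP-1 slots, which form 3 stretches in sites 129, 142 and 223, had an own-name insert above the mean of the other inserts, 9 of them by at least 2-fold, with a median difference of 1.35. Their difference from wt had a median of 0.01 and ran from -0.80 to 2.06, and 9 of the 11 were within 2-fold of wt. Over all slots, the inserts of these names within 2-fold of wt were 43.2% for bach1, 51.6% for ap1, 65.3% for jun, 66.3% for fra1 and 69.1% for fos. AP-1 names are strong inserts at large as well: over all 569 AP-1-named inserts of the pool, 83.7% exceeded the other inserts of their slot and 28.8% did so by at least 2-fold.

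In site 142 the AP-1 copies gave an activity close to that of wt. The site's wt element had an activity of 1.82, the highest of the 15. Across its stretch from 25 to 41 the other inserts averaged between -0.06 and 0.12 in the 5 slots. The own-name activity was 1.83 for bach1, 1.65 for ap1, 1.61 for fra1, 1.51 for fos and 1.47 for jun. Each of the 5 therefore lay within 0.36 of wt, inside the repeat spread, while standing between 1.35 and 1.89 above the other inserts. Taking the distance between the other inserts and wt as 100%, the own copies covered between 79.1% for jun and 101% for bach1. The level varied with the name and with the slot that received it. In the 4 other slots of the stretch, the ap1 motif gave 1.52 to 2.01, bach1 1.55 to 1.78 and fra1 1.32 to 2.09, but jun gave 0.85 to 1.15. The fos motif ranged from -1.14 to 1.94 over those 4 slots, against 1.51 in its own. Across all 194 inserts of the stretch, 54 were within 2-fold of wt and 7 reached it, and the highest was atf4, a CREB-related leucine zipper, at 2.43.

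In site 223 the AP-1 stretch from 29 to 44 gave a more uneven picture around a wt activity of 1.11. The bach1 copy in its own slot reached 3.17 with 42995 RNA counts, which was 2.06 above wt and 2.81 above the other inserts, the highest of both differences among all 95. The ap1 copy gave 1.57, jun 1.48, fra1 1.12 and fos 0.31. Of these 5, only bach1 was farther above wt than the repeat spread, and fos, at -0.80 from wt, was farther below it. The bach1 motif stood above wt in all 8 other slots of the merged stretch too, at 1.45 to 2.74, yet lower than in its own. The ap1 motif gave 1.50 to 2.24 in those 8. The jun and fos slots share 1 position (33 to 40), so each motif was measured in both slots there: jun gave 1.48 and 1.53, and fos 0.31 and 0.80. The order of jun above fos held in both. The fos motif was below wt by more than the repeat spread only in its own slot, which rests on 50 barcodes against 106. The fos motif reached 3.22 in the ap1 slot, which starts 4 bases earlier, above its own-slot value by 2.92. In site 129 the own copy of ap1 (49 to 57) had an activity of 0.47 against a wt of -0.98, so it exceeded wt by 1.44 and the other inserts by 1.21, and the same motif gave -0.05 to 1.01 in the 3 overlapping slots.

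Among nuclear receptor names the outcome split by the name that was put back. The 13 slots named ppar or rxr had an own copy above the other inserts in 12, with a median difference of 0.78. The 24 slots with other nuclear receptor names had one above in 8, with a median difference of -0.11. Both counts stand near what these names gave in any slot: over all slots, 97.9% of 190 ppar or rxr inserts and 41.3% of 1045 inserts with other nuclear receptor names exceeded the other inserts. Taken as 1 family, own copies did so in 20 of 37 slots, beside 50.04% of all 1235 nuclear receptor inserts. Against wt the medians were 0.61 and -0.36. The ppar and rxr elements had fewer barcodes, with a median of 58 against 158 for the other nuclear receptor names, and the part of that in the difference was not tested. Names and slots are confounded as well, since the 2 sets of names stand for different positions, except where they share one.

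The rxr name was above the other inserts wherever it was put back. In all 10 rxr slots, spread over 8 sites, the own copy exceeded the other inserts, by 0.21 to 2.00 with a median of 0.80, and its rank among the 39 inserts ran from 1 to 11. The rxr motif did the same in other slots. With 1 own slot left out at a time, its mean gain over the other inserts was 0.80 at the median, and its median rank 5. Over all slots 98.9% of 95 rxr inserts exceeded the others. Against wt the 10 differences ran from -1.39 to 1.65. The ppar name exceeded the other inserts in 2 of 3 own slots, beside 96.8% of all 95 ppar inserts. Its differences from the others ran from -0.04 to 1.48, and those from wt from -1.95 to 1.86. In site 330 (49 to 67) the own ppar copy had an activity of -1.49 against a wt of -1.25. It ranked 21 of 39 on 25 barcodes, and the same motif gave -0.645 under the rxr slot name. The pparg name gave lower values than the rxr name. In its 6 slots the own copy was above the other inserts in 2, beside 55.8% of all 95 pparg inserts. Its differences from the others ran from -0.19 to 0.46, and those from wt from -2.28 to 0.02. Elsewhere the pparg motif had a mean gain of 0.03.

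Site 138 shows the contrast between the rxr and pparg names at nearly 1 position. The wt activity was 1.62. In the rxr slot (51 to 65) the own copy had an activity of 1.50, against a mean of -0.50 for the other inserts, and so covered 94.2% of the distance to wt. In the pparg slot (50 to 65), which starts 1 base earlier, the own copy had -0.05 against -0.52 for the others, and covered 21.7%. The level went with the inserted name in both slots: rxr in the pparg slot gave 1.83, and pparg in the rxr slot gave -0.77. The highest insert of the rxr slot was ppar, at 1.97. Only 4 of the 78 inserts of this stretch reached wt. The rxr element rests on 56 barcodes and the pparg element on 168.

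In site 240 the same names stood above a weak wt. The wt activity was -0.64. At the position 51 to 65, which serves as an rxr and as a pparg slot, the rxr copy gave 1.01 in the rxr slot and 1.02 in the pparg slot (58 and 49 barcodes), while the pparg copy gave -0.62 and -0.66 (84 and 87 barcodes). The rxr copy was thus 1.65 above wt, and the pparg copy 0.02 above it. At the position 112 to 130, the ppar copy gave 1.22 in its own slot and 1.01 in the rxr slot, and the rxr copy gave 0.73 in its own slot and 1.21 in the ppar slot. The own ppar copy was the highest of its 39 inserts and stood 1.86 above wt, the second-highest such difference of all. In each of these 4 slots an own-name insert was therefore measured a second time, and every one of the 3 ppar or rxr copies stayed above wt by more than the repeat spread in both measurements.

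In site 223 no own copy in the nuclear receptor stretch reached wt. Across the stretch from 77 to 104, which holds 7 slots, own copies had activities between -1.44 and -0.28 against a wt of 1.11. The 6 lowest differences from wt among all 95 slots lie here. They were -2.55 for cebp (88 to 100), -2.50 for couptf (77 to 92), -2.28 for pparg (85 to 100), -2.18 for err1 (82 to 92), -1.95 for ppar (85 to 104) and -1.84 for hnf4 (82 to 100). The rxr copy (85 to 104) had an activity of -0.28 and was the highest of the 39 inserts of its slot, and it was still 1.39 below wt. None of the 273 inserts of these 7 slots reached wt, and the highest was dax1 in the err1 slot, at 0.45. Own copies differed from the mean of the other inserts by between -0.40 and 0.83, and only rxr among them passed 0.73. Of the names put back into this stretch, rxr covered the most of the distance to wt, at 37.3%. The site has the closest DR1 match of the 5 shown above, but where that match lies in the element was not analysed.

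Nuclear receptor copies elsewhere in site 223 were below wt as well. The hnf4 copy (115 to 129) had an activity of 0.58, and its difference from wt of -0.52 is inside the repeat spread. At the position 34 to 50, which overlaps the AP-1 stretch, the own copy of couptf gave -0.41, that of lxr 0.13 and that of rar -0.13, against a wt of 1.11. The other inserts of these slots were below wt too, with means of 0.44, 0.33 and 0.46. The couptf value is 0.86 below the other inserts and among the 6 lowest such differences, but couptf at the same position under the lxr and rar slot names gave 0.31 and 0.50. The 4 couptf copies ran from -0.86 to 0.04 against the other inserts, the 3 lxr copies from -0.32 to -0.11, the 3 rar copies from -0.59 to 0.30 and the 3 hnf4 copies from -0.50 to 0.38. The err1 name was mixed, with own copies at -0.60 to 0.69 against the other inserts. It exceeded them in 3 of 5 own slots, beside 38.9% of all err1 inserts. Its copy in site 129 (41 to 51) had an activity of 0.45, which was 1.43 above wt, yet the err1 motif gave -1.24 to -0.74 in the 3 overlapping slots.

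Own copies of C/EBP, NFI and AP-2 motifs stood below the average insert, as did these motifs in any slot. The cebp copy was below the mean of the other inserts in 9 of 10 slots over 8 sites, with a median difference of -0.48 and a range of -0.65 to 0.03. The nf1 copy was below it in 7 of 8 sites, with a median of -0.31. The ap2 copy was below it in 7 of 7 slots, from -1.40 to -0.07. Over all slots, 13.7% of cebp, 22.1% of nf1 and 11.6% of ap2 inserts exceeded the other inserts, so the counts of their own copies above, 1 of 10, 1 of 8 and 0 of 7, are near those of the motif at large. Their mean gains elsewhere were -0.41, -0.26 and -0.51. Against wt the picture was flatter: 8 of 10 cebp copies, 8 of 8 nf1 copies and 6 of 7 ap2 copies were within 2-fold, beside 74.7%, 75.8% and 68.4% of all inserts of these names. Among proline- and acidic-rich leucine zippers, hlf exceeded the other inserts in 3 of 3 slots, by 0.06 to 0.40, and stayed within 0.15 of wt, beside 80.0% of all hlf inserts above the others. The related vbp, in site 129 (28 to 37), had an activity of 0.09 against a wt of -0.98, which was 1.06 above wt and 0.45 above the other inserts. The difference of vbp from wt passes the repeat spread, but the vbp motif gave -0.95 and -0.70 in the overlapping slots. The NFI name ctf1 ran from -0.67 to 0.03 against the other inserts and was above them in 1 of 3 slots. The myc copies ran from -0.19 to 0.25, with 1 of 3 above, and the nr1 copies from -0.19 to 0.11, with 2 of 3 above. Over all slots, 20.0% of ctf1, 30.9% of myc and 42.1% of nr1 inserts exceeded the others. All 9 own copies of these last 3 names were within 2-fold of wt, beside 75.8%, 76.6% and 77.9% of all their inserts.

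The lowest differences from the other inserts came mostly from these weak motifs. They were -1.40 for ap2 in site 142 (5 to 17), -1.07 for myb in site 240 (26 to 35), -1.06 for ap2 in site 407 (28 to 41), -0.88 for ap2 in site 240 (48 to 59) and -0.88 for zfp410 in site 280 (98 to 114). Both copies of site 240 were near its wt of -0.64, with -0.67 for myb and -0.93 for ap2, whereas the other inserts of those slots averaged 0.40 and -0.05. The ap2 copy of site 142 was below wt too: its activity of 0.34 differed from wt by -1.49 while the other inserts averaged 1.74. The forkhead name foxp3 in site 330 (22 to 29) had the third-highest difference from wt, with an activity of 0.53 against -1.25, but the same motif gave -1.20 in the overlapping foxo4 slot.

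Nearness to wt was also set against how much the slot mattered to its site. In 14 of the 95 slots the other inserts averaged at least 2-fold below wt, and these are the slots of the 3 stretches described above: 25 to 41 of site 142, 50 to 65 of site 138 and 77 to 104 of site 223. In these 14 the own copy covered a median of 29.5% of the distance to wt, with a range of -18.6% to 101%. The same wt and the same other inserts chose these slots and set that distance. It was within 2-fold of wt in 6, which are the 5 AP-1 copies of site 142 and the rxr copy of site 138. Of all 545 inserts of these slots, 12.1% were within 2-fold of wt: 54 of 194 in site 142, 8 of 78 in site 138 and 4 of 273 in site 223. The 12 sites outside 138, 142 and 223 behaved otherwise. Their 69 own copies had a median difference from wt of -0.03 and were within 2-fold of it in 60, beside 83.9% of all 2690 inserts of those sites. In most slots of those sites, being near wt is thus shared with inserts of any name.

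Pool 5 gives a separate measure of need for 75 of the 95 slots, from other libraries (15729684 RNA and 17826643 plasmid counts). It holds elements named for 1 stretch of a site with no inserted motif, taken here as the stretch altered, although the labels do not describe the change. The 6 lowest differences from the pool 5 wt were -3.02 for fra1, -2.79 for ap1, -2.62 for fos, -2.54 for bach1 and -2.48 for jun, all in site 142, and -2.53 for rxr in site 138. In 13 slots, from 12 pool 5 elements in 3 sites, the altered element was at least 2-fold below wt. Own copies of these 13 slots exceeded the other inserts in 11, by at least 2-fold in 8, with a median of 1.35. In the other 62 matched slots they did so in 25, by at least 2-fold in 6, with a median of -0.13. Over all inserts of the 13 slots 44.3% exceeded the others and 14.6% did so by at least 2-fold, and over those of the 62 slots 44.8% and 8.44%. The make-up of the 2 sets differs, since 8 of the 13 slots carry AP-1 names and 3 of the 62 do. The AP-1 copies exceeded the others in 8 of 8 and 3 of 3, beside 88.5% and 82.5% of all AP-1 inserts in those slots. Without AP-1 names the counts were 3 of 5 and 22 of 59. No share over all inserts was computed for these, and 5 slots are too few to set against 59. Within 2-fold of wt were 8 of the 13 and 47 of the 62, beside 25.1% and 74.0% of all inserts there. For the AP-1 inserts in those slots the shares were 53.8% and 57.1%. The 25.1% is therefore not a like background for 13 slots of which 8 carry AP-1 names. As a description over 75 slots, which share sites, wt elements and in 18 cases a pool 5 value, the pool 5 difference correlated with that of the other inserts from wt (Pearson r = 0.71, Spearman rho = 0.72) and less with that of the own copy from wt (r = 0.32, rho = 0.42).

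The 2 pools did not call the same need everywhere. In the stretch 77 to 104 of site 223, pool 5 elements differed from wt by -1.62 for couptf, -1.72 for err1 and -1.56 for cebp. The hnf4 and pparg elements of the same stretch differed from wt by 0.12 and -0.05 in pool 5, although their slots averaged at least 2-fold below wt in pool 6. For the ppar and rxr slots, which share a pool 5 value, the pool 5 difference was -0.67. The AP-1 names of site 223 stood 0.91 to 1.16 below wt in pool 5. The wt elements themselves ranked alike in the pools, with r = 0.97 and rho = 0.94 over 11 shared sites. Their levels were not the same: the wt of site 223 had an activity of 0.01 in pool 5 and 1.11 in pool 6, each scaled to its own libraries.

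How far the own copy exceeded the other inserts went with how strong the motif was elsewhere. Over the 95 slots, the mean gain of a name in all other slots and its own-slot difference from the other inserts had r = 0.80 and rho = 0.72. This is a description, since names repeat up to 10 times and slots overlap. A prediction that adds the name's gain elsewhere to the mean of the slot left a mean difference of 0.06 ± 0.27 (SD, n = 15 sites), with 42 of 95 own copies above it. The AP-1 copies were above this prediction in 10 of 11 slots, with a median excess of 0.79. The ppar and rxr copies were above it in 6 of 13, with a median of -0.02. The share of all inserts above such a prediction was not computed, and 5 of the 11 AP-1 slots overlap in site 142. The AP-1 count is therefore not read as particular to own copies. The rank of the own copy was better than the median rank of its name elsewhere in 38 slots, worse in 52 and equal in 5.

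The ranks of the own copy among the inserts of its slot were spread evenly, with 34 slots in ranks 1 to 13, 33 in ranks 14 to 26 and 28 in ranks 27 to 39. In 66 of 95 slots (69.5%) some insert was at least 2-fold above the own copy, beside 71.3% for all inserts, and the median gap to the highest insert was 1.36, beside 1.44. The own copy was the highest of its slot in 5, as given above against the share for all inserts, and these are bach1 (30 to 44) and rxr (85 to 104) in site 223, rxr (51 to 65) and ppar (112 to 130) in site 240, and rxr (123 to 139) in site 280. The last had an activity of -0.40 against a wt of -1.01 and rests on 24 barcodes.

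The sites differed in where their own copies stood. The 4 lowest site means were -0.99 in site 223 (17 slots), -0.70 in site 407 (5 slots), -0.61 in site 138 (3 slots) and -0.42 in site 142 (6 slots). The wt activities of these sites were 1.11, -0.06, 1.62 and 1.82. The highest site means were 0.60 in site 129 (8 slots), 0.41 in site 330 (5 slots) and 0.30 in site 240 (14 slots), where wt was -0.98, -1.25 and -0.64. The mean was 0.16 in site 182 (5 slots), where wt was 0.50, and -0.20 in site 508 (5 slots), where wt was -0.33. In the 6 remaining sites, which are 31, 152, 206, 280, 580 and 699, the mean lay between -0.12 and 0.08, and wt was between -1.31 and -0.83. Since wt enters both quantities, no relation between wt and the difference is drawn from them. Against the other inserts, the site means were highest in site 142 at 1.09 and site 138 at 1.00, and lowest in site 699 at -0.39, where none of the 6 own copies exceeded the others.

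Medians differed little with the place and the length of the slot. Own copies differed from the other inserts by a median of -0.06 in the 40 slots centred up to base 50 of the element, 0.00 in the 20 centred from 50 to 90 and -0.18 in the 35 beyond 90. Slots of 12 bases or fewer, of 13 to 16 and of 17 or more had medians of -0.04, -0.11 and -0.07 (29, 37 and 29 slots). Slot length and the difference from wt had rho = -0.04 over the 95 slots.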

How the data were processed

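The authors deposited raw read counts per element of pools 5 and 6, summed over the barcodes of an element per the series' design text, for 1 RNA and 1 plasmid library each, with the number of barcodes per element in a further column of counts. In pool 6 that number equalled the lines of the deposited barcode map for all 3720 elements. The submitters' processing notes name the build mm9 and, for barcode maps, Bowtie2 2.1.0. The program that made the counts is not given in the sources used here.

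Activity was log2 of RNA over plasmid counts, with a pseudocount of 1 and scaled to library totals, for elements with at least 50 plasmid counts. That left out 2 elements, neither of them an own-name insert. Names were read as site, native motif, start, end and inserted motif. Own-name inserts were compared with the wt element and with the unweighted mean of the slot's other inserts. A site's value is the mean of its slots, and the SD is over sites. With 1 library of each kind there was no test between conditions. Intervals are normal approximations on log counts and cover counting error only, since the reads carry no molecular identifiers. Named slots were the 6 highest and 6 lowest differences from wt and from the other inserts, the 6 lowest in pool 5, names with at least 3 slots by counts and ranges, and every site. Other slots named were chosen after their values were seen. The members and the motif lists were chosen with earlier results of these data known. By those lists ctf1, vbp and nr1 count as other names. The starts in the site names were read as counted from 0, a convention the files do not state. Python 3.11.15, numpy 2.4.6 and pandas 2.3.3 were used. Only the additive prediction was tested on simulated data, which had additive slot and name effects and a known bonus for own copies. Pool 5 also held 101 rows without a site name, which enter its totals only. Alternatives covered the pseudocount, the plasmid minimum, the reference inserts, the weight of slots, merged positions and each site left out.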

Additional observations from a re-analysis of the deposited data

How the results depend on the processing

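The direction of the mean difference from wt was kept under every alternative run, at -0.16 to -0.04 when 1 site was left out, the smallest without site 223. The mean difference from the other inserts rests on few sites. It was 0.02 to 0.13 with 1 site left out, lowest without site 142, and its sign turned in 3 alternatives chosen after seeing the data: -0.043 with overlapping slots merged, -0.017 without own inserts named ppar or rxr, and -0.054 without sites 138 and 142. Without those 2 sites the difference from the additive prediction was -0.029 and that of the other inserts from wt 0.0094. With 1 site left out these were 0.02 to 0.08, and -0.24 to -0.10 (the smallest without site 138). Merged, 37 of 40 stretches were within 2-fold of wt, a lower number because units are fewer. Leaving out own inserts under 100 RNA counts removed none. No paired analysis was possible because each library is a single sample. Depth was not the narrowest limit: repeats within the pool spread more than counting error.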

Other observations

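The widest disagreement between repeats in pool 6 was not in an own-name insert. The forkhead motif foxd1, inserted at the position 34 to 50 of site 223, had an activity of 2.47 under the couptf slot name and -0.56 under the lxr slot name, a difference of 3.03. Without that position, 95% of the differences between repeats were below 0.66.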
